A study of Mus musculus with 18 samples.

Results

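Genes of the muscle acetylcholine receptor and of the machinery that assembles it, 10 in all, were followed in C2C12 myotubes. They were listed by name and by role, with no cut-off on a measured value, but earlier results of these data were known when they were chosen. They are the receptor subunit genes Chrna1, Chrnb1, Chrnd, Chrng and Chrne, the assembly genes Lrp4, Musk, Dok7 and Rapsn, and Ache. All 10 of the 10 genes had at least 10 counts in total, as did 21772 of the 55414 genes of the count table. C2C12 is an established mouse myoblast line. The cells were transfected with siRNA pools against Erk3 (siErk3, gene Mapk6), against Mk5 (siMk5, gene Mapkapk5) or with a non-targeting pool (siNTC) when confluent, and all were differentiated for 6 days. All myotubes then spent 16 h in serum-free medium with either 0.5 mM palmitic acid bound to BSA (PA) or BSA alone. The 6 groups had 3 libraries each, 18 poly(A)-selected, strand-specific RNA-seq libraries in all. The cultures held no nerve and were of 1 cell line, and whether the 3 libraries of a group came from separate cultures is not stated, so p-values measure the spread between these libraries, which may be technical.

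At the neuromuscular synapse, acetylcholine from the motor nerve opens a pentameric receptor channel in the muscle membrane. Fetal and uninnervated muscle carries the γ subunit, encoded by Chrng, and adult innervated muscle replaces it with the ε subunit, encoded by Chrne, beside the α1, β1 and δ subunits of Chrna1, Chrnb1 and Chrnd. Nerve-derived agrin binds Lrp4, which activates the receptor tyrosine kinase MuSK. The adaptor Dok7 acts on MuSK from inside the cell, and the scaffold rapsyn, encoded by Rapsn, then clusters the receptors. Acetylcholinesterase, encoded by Ache, breaks the transmitter down.

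All 10 are protein-coding genes and are given here with the GRCm39 positions of the count table. Chrnd (chr1:87118329-87127792) and Chrng (chr1:87132379-87140416) are neighbours on the plus strand of chromosome 1, with 4.59 kb between them. Rapsn (chr2:90865965-90876074, plus strand) and Lrp4 (chr2:91287856-91344124, plus strand) lie 0.412 Mb apart on chromosome 2, which also carries Chrna1 (chr2:73393559-73410682, minus strand). Chrnb1 (chr11:69674862-69686769) and Chrne (chr11:70505709-70510042) are on the minus strand of chromosome 11. Musk is at chr4:58285960-58374303, and Dok7 (chr5:35214110-35245183) and Ache (chr5:137285781-137292728) are both on chromosome 5, all on the plus strand. No exon of these genes overlapped another gene on the same strand, and counting used the strand.

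The promoters of several of these genes carry E-boxes, the sites (CANNTG) bound by MyoD and myogenin, and the Chrne promoter is known for an N-box (CCGGAA), a site for ETS factors. The stretches below are shown because each holds at least 1 of the matches counted here: both CAGCTG of Chrng, that of Musk, the first of the 2 in Chrna1, and the CCGGAA of Chrne, whose CAGCTG lies outside the bases shown. They are RefSeq upstream sequence (GRCm38.p6) that matched GRCm39 exactly once, written 5′ to 3′ on the gene's strand, with CAGCTG or CCGGAA in capitals.

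Chrng (chr1:87133333-87133473, plus strand): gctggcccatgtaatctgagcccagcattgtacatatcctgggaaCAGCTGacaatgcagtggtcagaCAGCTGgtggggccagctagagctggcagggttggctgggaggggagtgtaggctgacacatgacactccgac
Musk (chr4:58285812-58285922, plus strand): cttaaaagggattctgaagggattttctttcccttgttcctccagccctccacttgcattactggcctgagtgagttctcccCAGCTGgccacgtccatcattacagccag
Chrna1 (chr2:73410749-73410778, minus strand): agctCAGCTGtcatgcgggcacacaggtga
Chrne (chr11:70510079-70510108, minus strand): cccaaacctagcCCGGAActaacaccctcc

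RefSeq windows of 250 bases before the start were found for 7 of the 10 genes, but not for Chrnd, Rapsn and Lrp4. Dok7 had a second window from another start, so 8 windows were searched. CAGCTG, which reads the same on both strands, stood 155 and 132 bases before the start in Chrng, 92 and 44 in Chrna1, 138 in Chrne and 68 in Musk. Thus 4 of 7 genes held CAGCTG, against 13% of 32851 promoter windows of the same length. The looser CANNTG, of which CAGCTG is a case, was in all 7 genes with a window, though not in the second window of Dok7. It was in 66.22% of all windows. CCGGAA, searched on both strands, was 76 bases before the start in Chrne and was not found in the windows of the other 6 genes, against 12.03% of all windows. These are letter matches only. In the newer GENCODE M39 annotation some transcripts of Chrna1 and Chrne begin further upstream, so that both Chrna1 matches and the Chrne CCGGAA lie in their 5′ leaders. The RefSeq start of Chrng is 1154 bases inside the gene as the count table spans it, so the Chrng stretch lies within that span, after the first exon of the transcript that begins furthest upstream and before the start of the others. The start of Ache is likewise 735 bases inside.

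Library totals ranged from 13041979 to 28496727 counts (median 22417470), and levels are given as CPM, each count relative to the TMM-scaled total of its library. Summed CPM of 12 myotube markers was between 9532 and 12689 in every library. Chat, Slc18a3, Snap25, Syt1 and Elavl4 of neurons and Sox10, S100b and Ngfr of Schwann cells were under 0.1 CPM on average over the 18 libraries. The log2 fold change of Mapk6 with siErk3 was -1.20 in BSA (edgeR's quasi-likelihood test, FDR = 1.77e-14) and -0.95 in PA (FDR = 1.21e-12). Mapkapk5 in siMk5 had a log2 fold change of -0.61 in BSA and -0.49 in PA, with an edgeR FDR of 0.469 in each. The knockdown of Mk5 thus did not pass the test at the RNA level, where the gene was low, at 2.46 ± 0.126 CPM in siNTC BSA and 1.63 ± 0.422 CPM in siMk5 BSA (SD, n = 3). At the protein level, the paper reports efficient silencing of both kinases by Western blot. It also reports less Erk3 protein after Mk5 silencing, and a trend to less Mk5 protein after Erk3 silencing that was not significant.

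The γ subunit gene was expressed far above the ε gene in these myotubes. For comparison between genes, levels were divided by the exon length of each gene. In siNTC BSA, Chrna1 stood highest at 129.9 ± 1.62 CPM per kb (SD, n = 3), followed by Chrng at 53.7 ± 1.67 and Chrnd at 47.8 ± 1.05. Rapsn had 37.8 ± 1.80, Chrnb1 35.1 ± 1.57, Lrp4 25.3 ± 1.55, Musk 18.7 ± 0.730 and Dok7 11.2 ± 0.756 CPM per kb. The lowest were Ache at 1.87 ± 0.152 and Chrne at 1.49 ± 0.0777 CPM per kb. Every neighbouring pair in this order was apart in its 3 libraries. In siNTC PA the order differed at several places: Chrnb1 at 36.8 ± 1.46 CPM per kb overlapped Chrnd at 38.6 ± 0.909 and stood above Rapsn at 28.1 ± 0.932, and Lrp4 at 12.5 ± 0.806 overlapped Musk at 13.3 ± 0.530.

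**Figure D1:**
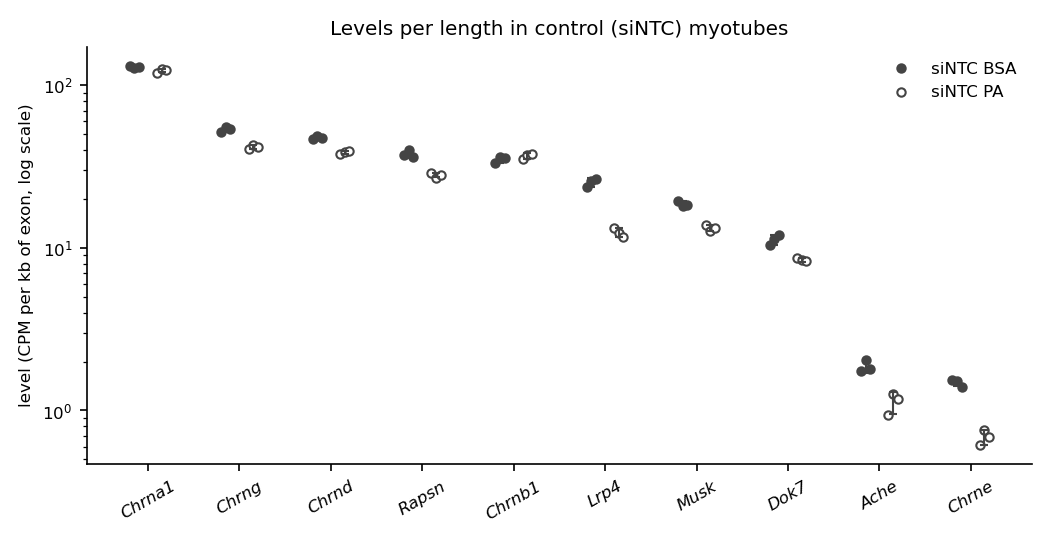
Level per kb of exon (CPM per kb, log axis) of the 10 genes in siNTC myotubes, with 3 libraries (points) and mean ± SD (bars) for BSA (filled) and PA (open). Chrna1 is highest at 129.9 and Chrne lowest at 1.49 in BSA, and Lrp4 drops from 25.3 to 12.5.

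The exon length of a gene here is that of all its annotated transcripts together, which weighs on Chrng most among the subunits. With the counted bases of the canonical transcript alone, a choice made after seeing the data, Chrng in siNTC BSA had 80.4 ± 2.50 and Chrne 1.56 ± 0.0813 CPM per kb. Chrna1 stayed highest and Chrne lowest on both lengths. In siNTC BSA the order was the same on both, with Rapsn at 41.9 ± 1.99 and Chrnb1 at 41.2 ± 1.84 on the canonical length. In siNTC PA on the canonical length, Lrp4 at 16.5 ± 1.07 stayed above Musk at 15.1 ± 0.602 CPM per kb. Their change of place in PA was thus seen on the exon length only. Chrnb1 at 43.2 ± 1.71 was level there with Chrnd at 43.0 ± 1.01. On the exon scale Chrng made up 20.04% ± 0.432 (SD, n = 3) and Chrne 0.555% ± 0.0289 of the summed level of the 5 subunit genes in siNTC BSA, and 17.3% ± 0.263 and 0.283% ± 0.0231 in siNTC PA. The share of Chrna1 was 48.5% ± 1.02 in BSA and 51.2% ± 0.129 in PA, and that of Chrnb1 was 13.1% ± 0.497 and 15.2% ± 0.225.

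Most of the genes were lower in PA than in BSA in all 3 siRNA backgrounds, and Lrp4, Chrne and Ache had the largest falls in each. A gene was called changed at an FDR below 0.05 with a fold change above 1.3. By that rule 6 of the 10 genes fell and 0 rose in siNTC, where 15.1% of all 21772 genes tested fell. In siErk3, 3 of 10 fell against 16.3% of all genes, and in siMk5 5 of 10 fell against 14.6%. By the FDR alone, 8 of 10 were lower in siNTC (21.2% of all genes), 8 of 10 in siErk3 (23% of all genes) and 7 of 10 in siMk5 (20.9% of all genes). One gene, Chrnb1, was higher by the FDR alone in siMk5, as were 23.4% of all genes. The median log2 fold change of the 10 genes was -0.42 in siNTC, -0.33 in siErk3 and -0.34 in siMk5, against -0.03, -0.01 and -0.01 over all genes tested.

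**Figure D2:**
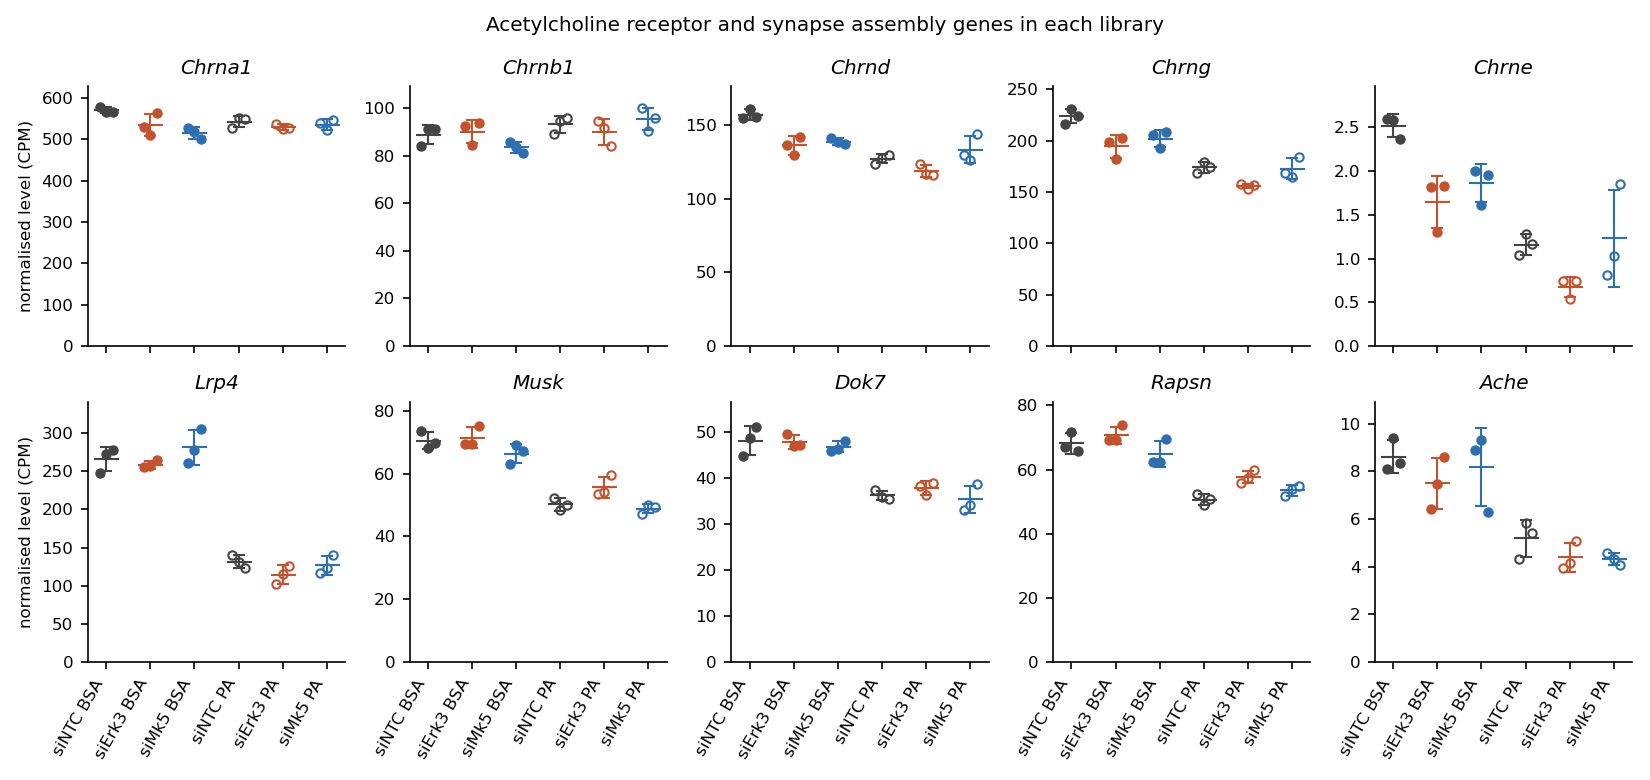
Normalised level (CPM, linear axes from 0) of each gene in all 18 libraries (points; filled, BSA; open, PA) with the mean ± SD of 3 libraries. Lrp4, Musk, Dok7, Rapsn and Ache step down from every BSA group to the PA groups, while the Chrna1 groups average between 515 and 569.8 CPM and the Chrnb1 groups between 83.6 and 95.4 CPM.

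**Figure D3:**
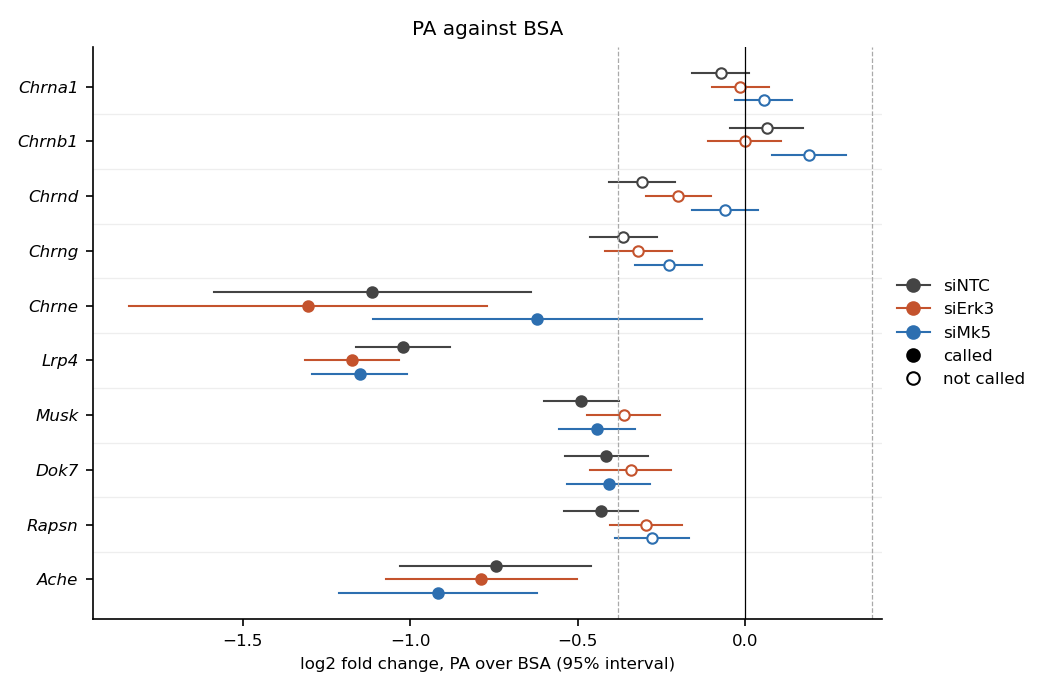
Log2 fold change of PA over BSA with its 95% interval for the 10 genes in siNTC, siErk3 and siMk5 (3 libraries against 3 each). Filled points were called, dashed lines mark a fold change of 1.3. Lrp4, Ache and Chrne were called in all 3 backgrounds, and Chrna1, Chrnb1, Chrnd and Chrng in none.

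Lrp4, the agrin receptor, fell by 50.7% in siNTC, by 55.7% in siErk3 and by 55.0% in siMk5. In siNTC its libraries had 247, 272 and 278 CPM in BSA and 139.8, 131 and 123 CPM in PA. The corresponding values were 255, 256 and 264 against 102, 116 and 126 CPM in siErk3, and 260.4, 278 and 305 against 116, 123 and 141 CPM in siMk5. Every PA library lay below every BSA library in each background. The log2 fold changes were -1.02 (SE 0.07, FDR = 1.09e-13, edgeR's quasi-likelihood test), -1.17 (FDR = 3.5e-15) and -1.15 (FDR = 8.02e-15).

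Musk, the kinase that Lrp4 activates, had smaller log2 fold changes than Lrp4. Musk had 73.5, 68.2 and 69.8 CPM in siNTC BSA and 52.2, 48.2 and 49.97 CPM in siNTC PA, a log2 fold change of -0.49 (SE 0.06, edgeR FDR = 7.52e-09). In siMk5 its log2 fold change was -0.44 (edgeR FDR = 5.59e-08). In siErk3 Musk went from 69.4, 69.5 and 75.2 CPM to 53.4, 54.0 and 59.6 CPM, and its log2 fold change of -0.36 (edgeR FDR = 9.72e-07) was just under the fold threshold. No Musk library of PA reached the lowest library of BSA in the same background.

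Dok7, the adaptor that binds MuSK, gave log2 fold changes of similar size, -0.41 in siNTC, -0.34 in siErk3 and -0.41 in siMk5 (edgeR FDR = 9.09e-07, 1.12e-05 and 1.27e-06), of which the first and the third were called. Its siNTC libraries had 44.6, 48.5 and 51.0 CPM in BSA and 37.3, 35.8 and 35.4 CPM in PA, with no overlap. These values sit close to the fold threshold: without BSA library 3 the siNTC value was -0.37 and without PA library 1 the siMk5 value was -0.36, and neither was then called. Rapsn, the receptor scaffold, had 67.01, 71.8 and 65.6 CPM in siNTC BSA and 52.2, 48.9 and 50.8 CPM in siNTC PA, a called log2 fold change of -0.43 (edgeR FDR = 5.93e-08). In siErk3 and siMk5 its log2 fold changes of -0.30 and -0.28 passed the FDR (edgeR, 1.66e-05 and 6.69e-05) but not the fold threshold.

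Among the receptor subunits Chrne had the lowest log2 fold changes, Chrng and Chrnd stayed within the fold threshold, and Chrna1 and Chrnb1 were not called. Chrne, the adult subunit, was read by 15 to 62 counts a library and had 2.60, 2.58 and 2.36 CPM in siNTC BSA against 1.03, 1.28 and 1.16 CPM in PA. Its log2 fold change was -1.11 (SE 0.23, edgeR FDR = 0.00016) in siNTC and -1.30 (SE 0.26, edgeR FDR = 9.51e-05) in siErk3, with no overlap of libraries. In siMk5 the BSA libraries had 2.01, 1.61 and 1.96 CPM and the PA libraries 0.809, 1.02 and 1.86 CPM, so that PA library 3 lay among the BSA libraries. There the log2 fold change of -0.62 (edgeR FDR = 0.0354) was called, but it ranged from -0.39 without PA library 1 (FDR = 0.241) to -1.02 without PA library 3 (FDR = 0.00119), and was also not called without PA library 2, BSA library 1 or BSA library 3.

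Chrng, the fetal subunit, had 217, 231 and 224 CPM in siNTC BSA and 168, 179.6 and 174 CPM in PA. Its log2 fold change was -0.36 in siNTC, -0.32 in siErk3 and -0.23 in siMk5, each past the FDR (edgeR, 2.17e-07, 1.75e-06 and 0.000248) and each under the fold threshold, with no overlap of libraries. Without BSA library 1 or PA library 2 the siNTC value was -0.39 in each case and was called. Chrnd, the δ subunit gene next to it, had 155, 161 and 156 CPM in siNTC BSA and 124, 128 and 129.7 CPM in PA. Its log2 fold change was -0.31 in siNTC (edgeR FDR = 2.9e-06) and -0.20 in siErk3 (edgeR FDR = 0.000845), and in siMk5 it was -0.06 (95% interval -0.16 to 0.04) with overlapping libraries.

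Chrna1, the α1 subunit gene that carries the main part of the ligand-binding site, had 578, 565 and 566 CPM in siNTC BSA and 526, 550.3 and 549 CPM in siNTC PA. The 95% intervals of its log2 fold change were -0.16 to 0.01 in siNTC, -0.10 to 0.07 in siErk3 and -0.03 to 0.14 in siMk5. Chrnb1, the β1 subunit gene, had intervals of -0.05 to 0.17 in siNTC and -0.11 to 0.11 in siErk3. In siMk5 it went from 85.9, 83.6 and 81.2 CPM to 100.004, 90.4 and 95.8 CPM, without overlap, a log2 fold change of 0.19 (SE 0.05, edgeR FDR = 0.00394) that was under the fold threshold.

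Ache fell in every background. Its libraries had 8.08, 9.42 and 8.37 CPM in siNTC BSA and 4.32, 5.84 and 5.41 CPM in siNTC PA. The log2 fold change was -0.74 in siNTC (SE 0.14, edgeR FDR = 4.2e-05), -0.79 in siErk3 (edgeR FDR = 1.76e-05) and -0.92 in siMk5 (edgeR FDR = 3.15e-06). In none of the 3 backgrounds did BSA and PA libraries overlap. Its exons share 98 bases with a gene on the opposite strand.

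The ratio of fetal to adult subunit RNA, Chrng over Chrne, was taken in each library per kb of exon length. The canonical length would raise every fold by the same factor and leave the differences between groups as they are. The geometric mean fold of Chrng over Chrne was 36.1 in siNTC BSA, 48.3 in siErk3 BSA and 44.3 in siMk5 BSA. It was 61.2, 94.4 and 60.6 in the same order in PA. The log2 ratio in single libraries was 5.08, 5.18 and 5.26 in siNTC BSA and 6.05, 5.84 and 5.92 in siNTC PA. These groups were apart, as were BSA and PA in siErk3, and the exact two-sided permutation test gave 0.1 for each, the smallest p that 3 libraries against 3 allow. In siMk5 the PA values of 6.40, 6.03 and 5.33 overlapped those of BSA (exact permutation p = 0.4). Within BSA, siErk3 was higher than siNTC in log2 ratio by 0.42 and siMk5 higher than siNTC by 0.30 (exact permutation p = 0.1 each). There siErk3 differed from siMk5 by 0.13 (exact permutation p = 0.5). The siErk3 libraries of PA had only 17, 15 and 15 Chrne counts. Within PA, siErk3 was higher than siNTC by 0.63 and higher than siMk5 by 0.64 (exact permutation p = 0.1 each), and siMk5 differed from siNTC by -0.01 (exact permutation p = 0.9). The siMk5 values turn on PA library 3, which had 5.33: without it siErk3 was higher than siMk5 by 0.35, PA was higher than BSA in siMk5 by 0.75 in place of 0.45, and siMk5 differed from siNTC by 0.28. Without siMk5 PA library 1 these values were 0.88, 0.21 and -0.25. Over these 9 comparisons of the ratio no p could fall below 0.05, adjusted or not.

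Other features of the cultures moved with PA as well. Of 12 myotube marker genes, 6 were called lower in siNTC, 3 in siErk3 and 3 in siMk5 and none higher, with median log2 fold changes of -0.36, -0.32 and -0.19. Over all genes tested, 15.1%, 16.3% and 14.6% were called lower in the same order, and the medians were -0.03, -0.01 and -0.01. Markers of proliferating or undifferentiated myoblasts fell, 6 of 8 in each background, with their summed level going from 902 to 974 CPM in BSA libraries to 384 to 503 CPM in PA libraries, and 4, 4 and 5 of 5 fibroblast markers fell. Of the 7 neuronal and 5 Schwann cell markers, 2 and 4 could be tested and 1 and 0 were called lower in each background. Their part in the falls of the receptor and assembly genes was not tested. In such bulk RNA, fewer myotubes and less RNA of a gene per myotube cannot be told apart.

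None of the 10 genes was called when Erk3 or Mk5 was silenced, in either medium. With siErk3 against siNTC in BSA, 0 of 10 genes were called, against 0.785% of all genes, and 4 had an unadjusted p under 0.05. By the FDR alone Chrnd and Chrng were lower, as were 0.312% of all genes. In PA 0 of 10 were called with siErk3 (0.556% of all genes; 5 with an unadjusted p under 0.05). With siMk5, 0 of 10 were called in BSA (0.0643% of all genes; 3 with an unadjusted p under 0.05) and in PA (0.547% of all genes; 0 with an unadjusted p under 0.05). DESeq2 also called 0 of 10 in each of the 4 comparisons. Of the 12 myotube markers, 3 were called higher in siErk3 BSA and 2 in siErk3 PA and 0 in siMk5, and their part in these values was not tested.

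**Figure D4:**
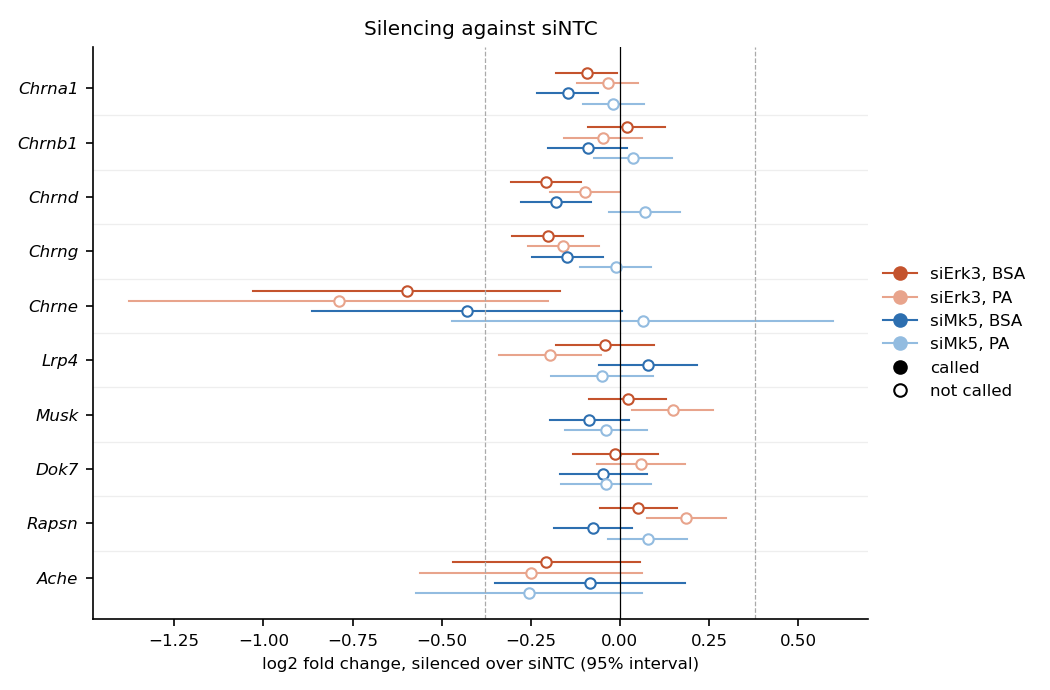
Log2 fold change of siErk3 or siMk5 over siNTC, in BSA (dark) and PA (light), with 95% intervals, for the 10 genes (3 libraries against 3 each). No point is filled, as none was called, and Chrna1, Chrnd, Chrng, Chrne and Ache lie below 0 in siErk3 in both media and in siMk5 in BSA.

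The 2 genes that passed the FDR in siErk3 were the adjacent subunit genes. Chrnd had 137, 129.7 and 142 CPM in siErk3 BSA against 155, 161 and 156 CPM in siNTC BSA, a log2 fold change of -0.21 (SE 0.05, edgeR FDR = 0.021). Chrng had 199, 182 and 203 CPM against 217, 231 and 224 CPM, a log2 fold change of -0.20 (SE 0.05, edgeR FDR = 0.0274). The siErk3 libraries of both genes lay below all siNTC libraries, by 13.3% and 13.1% on the fitted means. In PA the same comparison gave -0.10 for Chrnd (edgeR FDR = 0.612) and -0.16 for Chrng (edgeR FDR = 0.18).

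Chrne was at 1.82, 1.31 and 1.82 CPM in siErk3 BSA and at 0.745, 0.543 and 0.744 CPM in siErk3 PA. These libraries did not overlap those of siNTC in the same medium, and the log2 fold changes of -0.60 (SE 0.21) and -0.79 (SE 0.29) did not pass the test (edgeR FDR = 0.247 and 0.351). With siMk5 in BSA the values for Chrna1, Chrnd and Chrng were -0.15, -0.18 and -0.15 on the log2 scale (edgeR FDR = 0.274, 0.191 and 0.459), and each group of 3 libraries was apart from siNTC. The siMk5 BSA libraries also had the most 18S rRNA, 8.39% to 12.9% of their counts against 1.497% to 7.167% in the other 15 libraries, and its part in these values was not tested. In PA the siMk5 intervals of these genes were -0.10 to 0.07, -0.03 to 0.17 and -0.11 to 0.09.

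The assembly genes kept closer to siNTC in BSA, with log2 fold changes between -0.09 and 0.08 for Lrp4, Musk, Dok7 and Rapsn under either siRNA pool. In PA, Rapsn had 55.8, 57.4 and 59.7 CPM in siErk3 against 52.2, 48.9 and 50.8 CPM in siNTC, and Musk 53.4, 54.0 and 59.6 CPM against 52.2, 48.2 and 49.97 CPM. Both were apart from siNTC, with log2 fold changes of 0.19 (edgeR FDR = 0.121) and 0.15 (edgeR FDR = 0.373). Lrp4 went the other way there, with a log2 fold change of -0.20 (edgeR FDR = 0.329) and overlapping libraries. None of these differences passed the test.

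The 2 siRNA pools were also compared directly. With siErk3 against siMk5, 0 of 10 genes were called in BSA (0.588% of all genes; 1 with an unadjusted p under 0.05) and 0 of 10 in PA (1.03% of all genes; 5 with an unadjusted p under 0.05). The lowest FDR in PA were those of Chrnd, with a log2 fold change of -0.17 (edgeR FDR = 0.0883), and of Musk, at 0.19 (edgeR FDR = 0.0994).

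Whether silencing altered the response to PA was tested as an interaction. For siErk3, 0 of 10 genes were called (0.0367% of all genes) and 0 had an unadjusted p under 0.05. For siMk5, 0 of 10 were called (0.211% of all genes) and 2, Chrna1 and Chrnd, had an unadjusted p under 0.05. The largest interaction in proportion to its error was that of Chrnd with siMk5, where the fall in PA was smaller than in siNTC by 0.25 on the log2 scale (95% interval 0.11 to 0.39, edgeR FDR = 0.177). DESeq2 gave an FDR of 0.0431 for it at a fold change under the threshold, and without siMk5 PA library 3, which had 144 CPM against 129.7 and 127 CPM in the other two, edgeR's interaction was 0.19 (FDR = 0.555). Thus the smaller PA effects on Musk, Dok7 and Rapsn in siErk3, where they missed the fold threshold, were not shown to differ from those in siNTC (interactions of 0.13, 0.07 and 0.13 on the log2 scale, edgeR FDR = 0.849, 0.938 and 0.835).

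Within a medium, Chrnd, Chrng and Chrne ran in parallel from library to library. Over the 9 BSA libraries, Pearson's r between log2 levels was 0.93 for Chrnd with Chrng, 0.93 for Chrnd with Chrne and 0.96 for Chrng with Chrne, and over the 9 PA libraries it was 0.88, 0.88 and 0.94. Musk and Rapsn had r = 0.54 in BSA and 0.83 in PA. By contrast, Musk and Chrnb1 had r = 0.34 in BSA and -0.84 in PA. Over all 45 pairs the median was 0.24 in BSA and 0.10 in PA, and 0.70 over the 18 libraries together, where the step between media is shared by most of the genes. These correlations describe libraries that share the siRNA groups and the depth. Group means were not removed, so differences between the siRNA groups enter each r, which does not show how genes ran within a group.

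Among 12724 other genes, those whose log2 level ran closest over the 18 libraries to the mean z-score of Chrna1, Chrnb1, Chrnd and Chrng were Hhatl, Itga7, Leng8, 5430431A17Rik and Klhl40. Their r was 0.85, 0.85, 0.84, 0.83 and 0.82, and within the 9 BSA and 9 PA libraries it was 0.87 and 0.73 for Hhatl, 0.97 and 0.72 for Itga7, and 0.85 and 0.71 for Klhl40. Itga7 encodes the laminin-binding integrin α7 and Klhl40 a muscle protein that stabilises thin filament proteins. Chrne was left out of that mean, and so were the assembly genes.

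The wider gene set of the synapse did not move as 1 block in PA. It was listed by role, and counts are given for siNTC, where 15.1% of all genes were called lower and 15.5% higher. Of 14 genes of the synaptic basal lamina and secreted factors, 8 were called lower and 1 higher, with a median log2 fold change of -0.55. Colq, the collagen tail that anchors acetylcholinesterase, fell from 11.6 ± 0.50 to 3.62 ± 0.347 CPM (SD, n = 3), a log2 fold change of -1.68 (SE 0.11, edgeR FDR = 1.16e-13). The laminin gene Lama4 fell by 1.57 on the log2 scale, whereas the nidogen gene Nid1 rose from 392 ± 10.6 to 578 ± 62.3 CPM. Agrn, the agrin gene, was at 0.23 on the log2 scale and was not called.

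**Figure D5:**
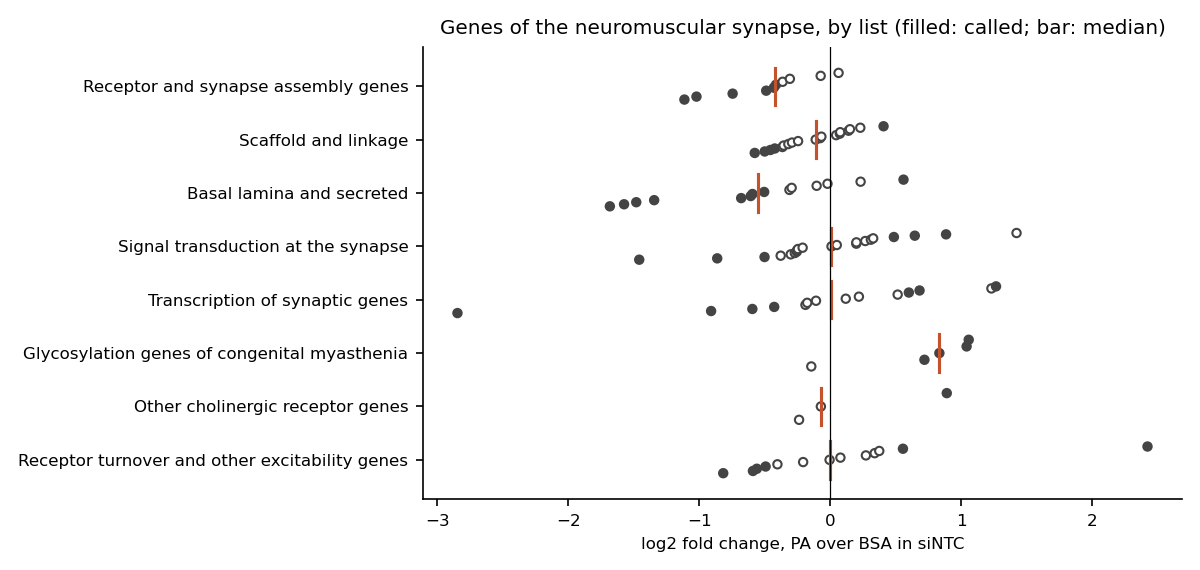
Log2 fold change of PA over BSA in siNTC for the 10 receptor and assembly genes and for 7 lists of other synapse genes (points; filled, called; vertical bar, median of the list). The basal lamina list lies mostly below 0 (median -0.55) and the glycosylation list mostly above it (median 0.83).

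The membrane scaffold and its linkage to the cytoskeleton changed less. Of 19 such genes, 4 were called lower and 1 higher, with a median of -0.11 on the log2 scale. The ankyrin gene Ank1 fell from 102 ± 5.01 to 68.8 ± 2.89 CPM, while the β2-syntrophin gene Sntb2 rose from 71.8 ± 3.86 to 95.5 ± 4.32 CPM. Among 21 signalling genes tested of 22, 3 fell and 3 rose. Cdk5r1, the activator of Cdk5, had a log2 fold change of -1.46 (edgeR FDR = 5.71e-14) and the MuSK-binding chaperone gene Dnaja3 one of 0.89 (edgeR FDR = 1.18e-15).

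Of 14 genes for transcription factors of the synaptic programme and their partners, 4 fell and 3 rose in siNTC. Myod1, which binds E-boxes, fell from 89.4 ± 8.08 to 47.7 ± 4.69 CPM (log2 fold change -0.91, edgeR FDR = 1.46e-12) and Myog by 0.59 on the log2 scale (edgeR FDR = 6.7e-13). The ETS factor gene Etv5 rose from 22.6 ± 1.45 to 54.7 ± 4.95 CPM (log2 fold change 1.27, edgeR FDR = 1.99e-16). Gabpa and Gabpb1, whose product GABP binds N-boxes, had log2 fold changes of 0.12 and 0.22 and were not called.

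Glycosylation genes that cause congenital myasthenia when mutated rose, 4 of 5 in siNTC, in siErk3 and in siMk5, with median log2 fold changes of 0.83, 0.72 and 0.75. Dpagt1 rose from 26.7 ± 1.51 to 55.9 ± 0.991 CPM and Alg2 from 29.4 ± 0.921 to 60.7 ± 1.93 CPM. Of 13 genes of receptor turnover and excitability, 4 fell and 2 rose. Ncam1 fell from 503 ± 9.43 to 334 ± 17.5 CPM, and the autophagy receptor gene Sqstm1 rose from 417 ± 13.95 to 2239 ± 241 CPM. Only 3 of 16 other cholinergic receptor genes could be tested, of which Chrnb2 rose, from 1.01 ± 0.351 to 1.97 ± 0.576 CPM (edgeR FDR = 0.00522).

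The other 2 backgrounds were counted in the same way, and the differences between backgrounds were not tested for the lists. In siErk3, where 16.3% of all genes were called lower and 15.8% higher, 9 basal lamina genes fell and 1 rose. In siMk5, where 14.6% of all genes were called lower and 15.1% higher, 9 fell and 1 rose. The scaffold list had 5 lower and 0 higher in siErk3 and 5 lower and 1 higher in siMk5, the signalling list 6 lower and 3 higher in each, and the transcription list 6 lower and 4 higher in siErk3 and 4 lower and 3 higher in siMk5. The 3 PA comparisons share no library. Under silencing the basal lamina list held the called genes: Col13a1 fell in siErk3 BSA from 10.3 ± 0.53 to 6.60 ± 0.314 CPM (log2 fold change -0.64, edgeR FDR = 0.00153) and Fgfbp1 rose from 7.45 ± 0.253 to 9.71 ± 0.901 CPM (edgeR FDR = 0.0485). Agrn was higher in siErk3 than in siMk5 in PA, at 107 ± 8.95 against 76.6 ± 5.39 CPM (log2 fold change 0.48, edgeR FDR = 2.12e-06).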

How the data were processed

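Counts of 18 libraries were used as deposited. Per the file headers, the authors counted read pairs with featureCounts (2.0.0; reverse strand, primary alignments, mapping quality of at least 3) on GRCm39 with the Ensembl 105 annotation, after adapter trimming and alignment with STAR, and the submitters' notes also name mm10 and Salmon. The deposited log2 values were used only for a check: they equal log2 of the scaled count plus 1. The deposited file's length column was used for CPM per kb.

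The 21772 genes whose counts summed to 10 or more were fitted over all 18 libraries with edgeR (4.0.16), TMM scaling, a quasi-likelihood test and Benjamini-Hochberg FDR, 1 mean per group and contrasts between groups. Genes were called at an FDR below 0.05 and a fold change above 1.3. DESeq2 (1.42.0), its size factors, other count filters, fits of only the groups compared, a replicate block and leaving out each library were tried. Ratios were compared with exact permutation tests. Code was tested on simulated data. Symbols came from GENCODE M39 for 21601 genes, and no column belonged to other samples. The 10 genes are described in full. Of each list, the 2 called genes with the largest fall and the 2 with the largest rise were open to naming, and genes named outside that rule (Agrn in PA, Myog, Gabpa and Gabpb1) were picked by role after their values were seen. The genes and lists were chosen with earlier results of these data known. One gene of the lists is not reported here by name.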

Additional observations from a re-analysis of the deposited data

How the results depend on the processing

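No called value changed sign under any alternative. Values that were not called did so in places when 1 library was left out: in siMk5 against siNTC in PA, Chrne ranged from -0.34 to 0.30 and the log2 ratio of Chrng to Chrne from -0.25 to 0.28, and Chrna1 in PA in siErk3 from -0.06 to 0.02. Judged by the FDR alone, without the fold threshold, 2 genes were lower with siErk3 in BSA in place of 0, 8 were lower in PA in siErk3 in place of 3, and 1 was higher in PA in siMk5 in place of 0. Leaving out 1 library at a time, the number of the 10 genes called lower in PA ranged from 5 to 7 in siNTC, from 3 to 4 in siErk3 and from 3 to 5 in siMk5, the 3 without siMk5 PA library 1, where Chrne and Dok7 were no longer called. Musk in siErk3 was called without BSA library 1 or 2 or PA library 3 (log2 fold changes of -0.39, -0.39 and -0.42). DESeq2 did not call Chrne in siMk5 (FDR = 0.0665), and edgeR's filterByExpr called Chrng in siNTC (-0.39).

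Groups share replicate numbers, but the deviations of same-numbered libraries had correlations from -0.61 to 0.52, and in 0 of 9 comparisons was every one above 0.1, so the numbers were not taken to pair libraries. A fit with the replicate block called the same numbers of genes lower in PA, 6 in siNTC, 3 in siErk3 and 5 in siMk5, and 0 in the silencing comparisons. Over all genes, the number called in the interaction with siErk3 was 8, against 72 with no count filter, 0 with filterByExpr and 4 with DESeq2's size factors. With no count filter it was 130 in place of 46 for the interaction with siMk5, 61 in place of 14 for siMk5 in BSA, 208 in place of 121 for siErk3 in PA and 201 in place of 128 for siErk3 against siMk5 in BSA, and with only the groups compared it was 34 for siMk5 in BSA. Leaving out 1 library, it ranged from 0 to 24 for the interaction with siErk3, from 24 to 67 for that with siMk5 (24 without siMk5 BSA library 3), from 6 (without siNTC BSA library 2) to 31 (without siMk5 BSA library 1) for siMk5 in BSA, and down to 111 in place of 171 for siErk3 in BSA without siNTC BSA library 2, so the shares of all genes given for these comparisons vary as much. Depth limits Chrne most, at 15 to 62 counts a library.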
